A study of Homo sapiens with 12 samples.

Results

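KYSE70 is a human esophageal squamous cell carcinoma line, and the comparison described here is between its cells after 72 h with 20 nM mitoxantrone and untreated cells. It rests on 8 of the 12 RNA libraries of the series, 4 from mitoxantrone-treated and 4 from untreated cells. The other 4 libraries came from cells given 10 µM pyrimethamine for 72 h, and they enter the choice of genes tested, the estimate of the spread and a last comparison. The genes described are those whose normalized count reached 10 in 4 or more libraries, 16950 of the 58884 genes in the table. Most weight is on 11983 of them with a mean of at least 100 over the 8 libraries, called well-measured below. The labels name no vehicle for the untreated cells and leave it unsaid whether libraries are separate cultures, so p-values measure only the spread between these libraries, which may be technical.

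Mitoxantrone is an anthracenedione used against cancer. It slides between the bases of DNA and traps type II topoisomerases, the enzymes that pass one DNA duplex through a break in another. The trapped enzyme leaves a double-strand break with protein attached to its ends, which cells clear with phosphodiesterases and break repair. The series title names the drug as an inhibitor of NRF2, the transcription factor that drives antioxidant and detoxification genes. In squamous epithelium, TP63, SOX2 and the keratins KRT5 and KRT14 mark the basal lineage. Certain other keratins, kallikreins and transglutaminases mark cells on the way to differentiation.

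Reads assigned to genes numbered 47.5 to 94.5 M in the 8 libraries. All 8 squamous epithelial markers checked were detected, with the basal keratin KRT14 low at 136 control counts (SD 24.8, n = 4). Of the markers of other cells, COL1A2, KDR, CLDN5, CD3D and MS4A1 were at 0 in all 8 libraries, and PTPRC, PECAM1 and CD68 averaged under 5 normalized counts in both groups. Among these markers COL1A1, COL3A1 and VWF were high in the control, at means of 14955 (SD 450.1, n = 4), 2295 (SD 133, n = 4) and 1001 (SD 61.1, n = 4). Mitoxantrone replicate 1 stood apart from the other 3 libraries of its group. Its median absolute log2 distance from them over well-measured genes was 0.108, against 0.0564 to 0.0735 for the others, and it was the mitoxantrone library nearest to the control for 36.5% of the called well-measured genes. Leading counts are therefore given with and without it.

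Mitoxantrone changed most of the measured transcriptome by small amounts and lowered a minority of genes by large ones. Of the 16950 genes tested, 5681 were higher and 6064 were lower at an adjusted p under 0.05 (limma on log2(value + 1), Benjamini-Hochberg), so 69.3% were called, 33.5% higher and 35.8% lower. The median log2 change over all genes was -0.01, with quartiles of -0.46 and 0.33. Past a 2-fold change the directions parted, with 657 genes higher (3.88%) and 2343 lower (13.8%). At 8-fold or more, 19 genes were higher and 302 were lower. Without mitoxantrone replicate 1 the counts were 5658 higher and 6059 lower in all, and 637 higher and 2328 lower at 2-fold.

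Among the 11983 well-measured genes, 76.2% were called, with 5065 higher (42.3%) and 4064 lower (33.9%). At 2-fold or more, 308 were higher (2.57%) and 655 lower (5.47%), or 287 and 661 without mitoxantrone replicate 1. At 4-fold or more, 17 were higher and 154 lower. The 4 mitoxantrone and 4 control libraries did not overlap in 8188 of the well-measured genes (68.3%). The falls were concentrated among less abundant genes. The median log2 change was -1.25 for genes with a mean under 10, -0.27 for means of 30 to 100, -0.14 for 100 to 300, and 0.14 for means of 10000 or more. The filter bears on the lowest levels: 388 genes reached 10 in every control library and in no mitoxantrone library, and 65 showed the reverse. Of those 388 genes 1 was well-measured, and of the 65 none. A further 76 genes were tested only because they reached 10 in the 4 pyrimethamine libraries.

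**Figure D1:**
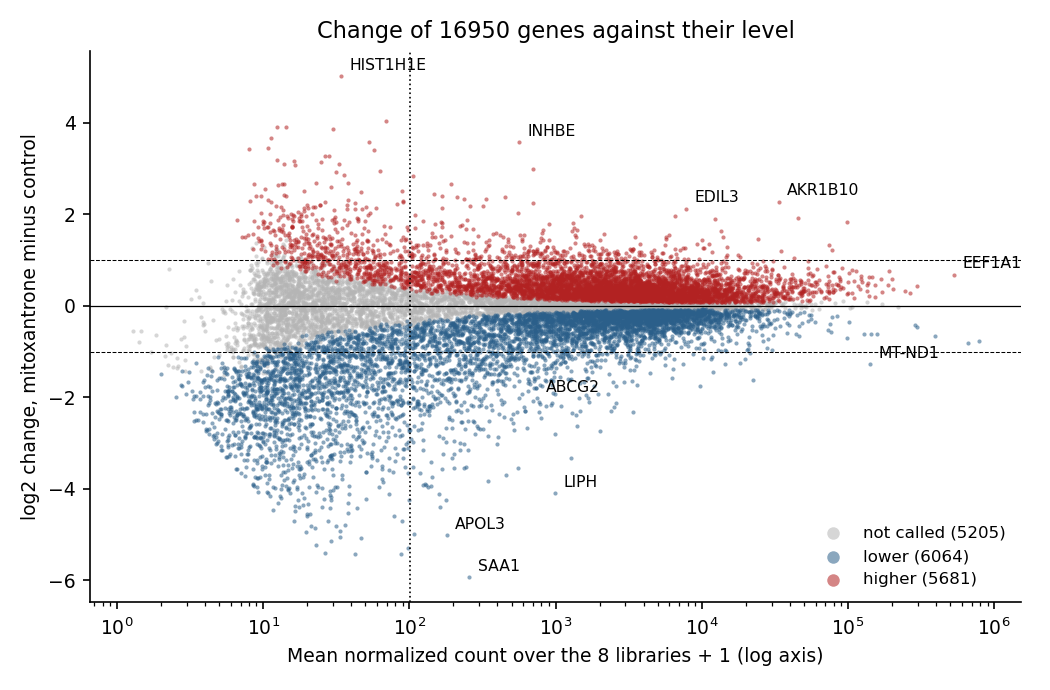
Each point is 1 of the 16950 genes, placed by its mean normalized count over the 8 libraries (log axis) and its log2 change between mitoxantrone and control, colored by whether it was called higher, lower or not called. Dashed lines mark 2-fold changes and the dotted line a mean of 100; large falls outnumber large rises, mainly on the left of the plot.

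The split between directions depends on how libraries are scaled. The deposited values sum to 62.4 M per control library (SD 0.449, n = 4) and 66.9 M per mitoxantrone library (SD 0.811, n = 4; two-sided exact permutation test, p = 0.0286, the smallest that 4 against 4 can give). Of the calls, 48.4% were higher with the deposited scaling and 38.0% when all libraries were rescaled to the same total, which moved the median of all genes by -0.10. Quantile normalization gave 1260 genes higher and 1504 lower at 2-fold, in place of 657 and 2343, while 361 and 566 of these were well-measured.

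The 14 largest falls among well-measured coding genes included secreted, membrane and defense genes, each lower by at least 13.5-fold on the log2(value + 1) scale. Of all coding genes tested, 74.8% were called, and 2.94% were higher and 12.1% lower by 2-fold or more. SAA1 encodes serum amyloid A1, an acute-phase protein of inflammation (chromosome 11, 18266174 to 18269977, GRCh38). Its normalized counts were 569.7, 488, 438 and 516 in the control and 2.07, 5.72, 21.0 and 8.97 under mitoxantrone. No mitoxantrone library came near the lowest control library, and the log2 change was -5.93 (SE 0.34, limma adjusted p = 1.7e-12), a 61.2-fold fall.

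Members of the apolipoprotein L family, lipid-binding proteins of which APOL1 lyses trypanosomes, made up 3 of the 14. APOL1 counts were 239, 176, 202 and 215 in the control and 6.20, 3.82, 6.18 and 6.28 under mitoxantrone, a log2 change of -4.99 (SE 0.20). APOL3 fell from 304 to 389 counts down to 4.77 to 22.3, a log2 change of -5.01 (SE 0.31). APOL6 fell by 3.83 on the log2 scale. The groups stood far apart in all of them.

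LIPH, a membrane-bound phospholipase that makes lysophosphatidic acid, had the smallest standard error among the 14 falls. Its counts were 1899, 1935, 1861 and 1792 in the control and 90.9, 131, 89.1 and 130.0 under mitoxantrone, a 17.1-fold fall (log2 change -4.10, SE 0.10). KLK5, a serine protease of the skin barrier, fell from 355, 295, 348 and 349 to 12.4, 10.5, 28.5 and 20.6, a log2 change of -4.25 (SE 0.20). KRTAP3-1, a hair keratin-associated protein, fell from a mean of 308 (SD 29.8, n = 4) to 14.4 (SD 5.96, n = 4). The epithelial retinol and steroid dehydrogenase DHRS9 changed by -4.12. Libraries of the 2 groups did not overlap in any of these genes, a condition of the naming rule that 66.5% of coding genes met.

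The remaining falls of this set were spread over several functions. The log2 changes were -3.95 for PNMA2, a paraneoplastic antigen, and -3.93 for IGFL1, a secreted insulin growth factor-like protein. UBA7, the activating enzyme that couples ISG15 to proteins, changed by -3.92. The membrane lipid hydrolase relative SMPDL3B changed by -3.91 and the riboflavin transporter SLC52A3 by -3.89. ACKR3, a scavenging receptor for the chemokine CXCL12, had 246 to 295 normalized counts in the control and 14.8 to 24.8 under mitoxantrone, a log2 change of -3.75 (SE 0.16).

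**Figure D2:**
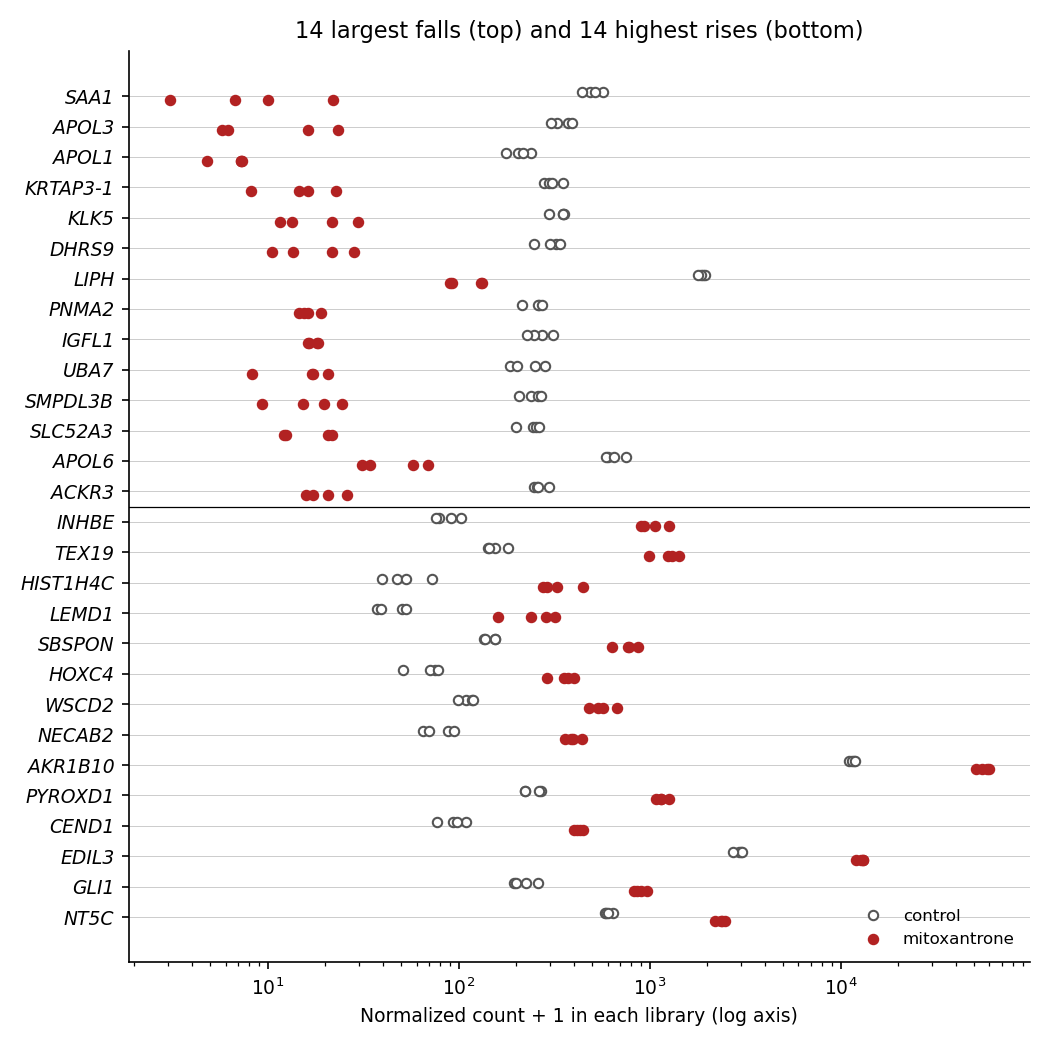
Each point is the normalized count (plus 1, log axis) of a gene in 1 library, open for the 4 control and filled for the 4 mitoxantrone libraries. The 14 largest falls are above the line and the 14 highest rises below it. Control and mitoxantrone points do not overlap for any of the 28 genes, which was a condition for choosing them.

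Several large falls carry an interferon response element in the promoter, and 6 of these are printed because the element is commoner among the genes that fell most. RefSeq promoters (GRCh38.p14), taken as 250 bases before to 50 bases after the start, were matched for 10722 of 13288 coding genes tested. The element searched was GAAA, any 2 bases, then GAAA again, on either strand. It was present in 2.67% of all promoters matched (286 promoters). Among well-measured genes it was in 238 of 9138 promoters, in 5.15% of the 427 at least 2-fold lower, in 13.8% of the 87 at least 4-fold lower (12 promoters), and in 2.54% of the 197 at least 2-fold higher. The stretches below run 5′ to 3′ on the gene's strand, with the first match upstream of the start in capitals. On the opposite strand the element reads as a pair of TTTC.
SAMD9 (chr7:93118066-93118155, minus strand): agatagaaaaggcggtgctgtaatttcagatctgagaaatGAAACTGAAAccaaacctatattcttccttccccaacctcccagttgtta
IFIT3 (chr10:89327801-89327890, plus strand): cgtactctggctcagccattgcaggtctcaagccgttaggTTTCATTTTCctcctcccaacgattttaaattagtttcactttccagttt
GBP1 (chr1:89065286-89065375, minus strand): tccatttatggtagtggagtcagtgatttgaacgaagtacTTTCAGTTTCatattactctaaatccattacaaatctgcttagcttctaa
IFI6 (chr1:27672299-27672388, minus strand): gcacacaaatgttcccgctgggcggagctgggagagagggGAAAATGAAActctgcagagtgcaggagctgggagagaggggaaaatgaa
IFIT1 (chr10:89392467-89392556, plus strand): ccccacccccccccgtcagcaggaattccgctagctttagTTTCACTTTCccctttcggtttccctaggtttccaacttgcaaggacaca
ISG15 (chr1:1013344-1013433, plus strand): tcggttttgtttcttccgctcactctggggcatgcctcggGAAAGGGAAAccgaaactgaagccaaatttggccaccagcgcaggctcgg

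The genes behind these stretches are antiviral effectors. SAMD9, a cytoplasmic restriction factor for poxviruses, had 834, 905, 828 and 817 normalized counts in the control and 72.3, 61.1, 53.2 and 73.5 under mitoxantrone, a 12.9-fold fall (log2 change -3.69, SE 0.09). IFIT3 and IFIT1, which bind foreign RNA as a complex, changed by -3.51 and -2.15. GBP1, a GTPase that coats intracellular pathogens, fell from a mean of 257 (SD 37.9, n = 4) to 24.2 (SD 9.63, n = 4). IFI6, a small membrane protein, changed by -2.48, and ISG15, a ubiquitin-like modifier, by -1.96. Every control library lay above every mitoxantrone library in all 6. A match is a description of letters in this window and not of a bound site. Of the 238 genes with a well-measured promoter that held the element, 22 were at least 2-fold lower (9.24%), against 4.55% of those without it. At any size of change, 95 of the 238 were higher (39.9%) and 100 lower (42.0%), against 42.7% and 33.7% of those without it.

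Among well-measured genes, the promoters of those that fell also differed in base composition. The ratio of observed to expected CpG was under 0.5 in 9.98% of all well-measured promoters matched, 34.9% of those at least 2-fold lower, 52.9% of those at least 4-fold lower and 16.2% of those at least 2-fold higher. Seen the other way, 16.3% of the genes with such a promoter were at least 2-fold lower, against 3.38% of the genes with a higher ratio. Low ratios also went with low counts. Among genes with a mean under 100 the share was 40.3%, with 46.6% of those at least 2-fold lower and 38.2% of those at least 2-fold higher. The well-measured shares were not matched for level. The AP-1 site TGACTCA was in 2.81% of well-measured promoters and in 6.56% of those at least 2-fold lower, and the TATA box TATAAA in 5.00% and 10.1%, and the TATA box also in 8.63% of those at least 2-fold higher. The E-box CACGTG was in 10.3% of all and 5.62% of the at least 2-fold lower. The antioxidant response element core TGACNNNGC, to which NRF2 binds, was in 15.2% of all and 10.7% of the at least 2-fold higher promoters. The ATF4 composite site TGATGNAA was in 1.53% of all and 3.05% of the at least 2-fold higher (6 promoters). An NF-kB site was in 6.42% of all, 9.14% of the at least 2-fold higher and 8.67% of the at least 2-fold lower. The cyclic AMP response element, CCAAT box and GC box were also searched and are not reported here. These shares are descriptions, and 1 promoter can hold several of the features.

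The 14 highest rises among well-measured coding genes were smaller than the falls, from 3.90-fold to 11.9-fold. INHBE encodes the inhibin beta E chain, a secreted hormone subunit (chromosome 12, 57452323 to 57459280). Its normalized counts were 89.8, 101, 77.9 and 75.1 in the control and 929, 1251, 902 and 1068 under mitoxantrone, a log2 change of 3.58 (SE 0.20, limma adjusted p = 8.3e-13). TEX19, a gene of the germ line and placenta, rose from 141, 153, 143 and 181 to 991, 1308, 1236 and 1412, a log2 change of 2.99 (SE 0.16). Every mitoxantrone library was above every control library in both genes, as the naming rule required.

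Other rises came from developmental and metabolic genes. GLI1, the transcription factor at the end of the Hedgehog pathway, had 193, 258, 197 and 223 normalized counts in the control and 893, 855, 961 and 829.6 under mitoxantrone, a 4.07-fold rise (log2 change 2.03, SE 0.11). HOXC4, a homeobox transcription factor, changed by 2.39. EDIL3, an integrin-binding matrix protein, rose from 2913, 2999, 3025 and 2733 to 11964, 12992, 13106 and 12767 (log2 change 2.12, SE 0.05). AKR1B10, an aldo-keto reductase and NRF2 target, rose 4.84-fold.

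Log2 changes of the other rises were 2.67 for the histone gene HIST1H4C, 2.45 for LEMD1, 2.39 for SBSPON, 2.34 for WSCD2 and 2.33 for the neuronal calcium-binding protein gene NECAB2. PYROXD1, a nuclear-cytoplasmic oxidoreductase, changed by 2.25, CEND1, a neuronal cell cycle exit factor, by 2.19, and NT5C, a nucleotidase, by 1.96. Counts of some are uncertain because the strand setting is not given in the sources used here: other genes cover 60.7% of the exon bases of NT5C, 43.8% of TEX19, 31.4% of LEMD1 and 27.4% of PYROXD1.

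Among genes that are not protein coding, the largest fall was in LUARIS, a long noncoding RNA. It had 418, 443, 537 and 407 normalized counts in the control and 41.3, 34.3, 64.3 and 64.6 under mitoxantrone, a log2 change of -3.16 (SE 0.16). RASAL2-AS1 changed by -2.69, AC073611.2 by -2.67 and AC022028.2 by -2.43. The highest rise was in LINC00641, from 14.5 to 33.7 up to 156 to 226 (log2 change 2.84, SE 0.25), followed by AL035681.1 (2.39), LINC00707 (2.19) and LINC02561 (2.13). As a class, 159 of 962 lincRNA genes were higher and 392 were lower (median -0.40), while the 197 well-measured ones had 78 higher and 60 lower (median 0.07). Reads from genes that are not protein coding fell from 2.64% (SD 0.0709, n = 4) to 1.91% (SD 0.0792, n = 4; exact permutation p = 0.0286). Processed pseudogenes, whose reads can come from their parent genes, had 138 of 582 higher and 44 lower.

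The 6 largest losses in normalized counts were all mitochondrial transcripts. All 13 protein-coding genes of the mitochondrial genome fell, with log2 changes of -0.43 to -1.28, beside 37.7% of all coding genes tested. MT-CO1, a subunit of cytochrome c oxidase, had 840671, 786776, 880815 and 849071 normalized counts in the control and 404984, 515640, 494949 and 505753 under mitoxantrone, a log2 change of -0.81 (SE 0.08), or -0.73 without mitoxantrone replicate 1. MT-ND1 of respiratory complex I fell most (-1.28, SE 0.07), and MT-CO3, MT-CO2, MT-ND4 and MT-ATP6 changed by -0.66, -0.47, -0.43 and -0.63. The mitochondrial share of reads was 6.16 to 6.69% in the control, 3.84 to 3.89% in mitoxantrone replicates 2 to 4 and 3.23% in replicate 1 (exact permutation p = 0.0286). Less RNA per cell and fewer cells with much of it cannot be told apart in bulk libraries.

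The 6 largest gains in normalized counts, which scale with gene length as well as level, were in EEF1A1, AKR1C2, FTH1, ACTB, ENO1 and EIF4G2. EEF1A1, the elongation factor that delivers transfer RNA to the ribosome, had 403091, 410068, 410195 and 406886 counts in the control and 541454, 695376, 697723 and 690672 under mitoxantrone. Mitoxantrone replicate 1 was the lowest of its group, and the log2 change was 0.68 (SE 0.07), or 0.77 without it. AKR1C2, an aldo-keto reductase, rose from a mean of 43003 (SD 1338, n = 4) to 152221 (SD 4893, n = 4). The ferritin heavy chain FTH1, ACTB, the glycolytic enzyme ENO1 and the translation regulator EIF4G2 changed by 0.76, 0.44, 0.58 and 0.59. FTH1 and EEF1A1 have many near-identical pseudogenes, so their counts are uncertain to that extent.

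Gene families were formed without regard to function, as coding genes whose symbols share the letters before the first digit, which gave 92 families with at least 15 genes tested. Their counts are read against all coding genes tested, of which 37.0% were higher and 37.7% lower. The MT stem had the lowest median (-0.68) and held the 13 mitochondrial genes and 3 metallothioneins, small zinc-binding proteins, which all fell; MT2A changed by -0.75 and MT1F by -1.06. Keratins, the intermediate filaments of epithelia, came next: 18 of 26 fell and none rose (median -0.67, and -0.23 over the 15 well-measured members). KRT75 had 1935, 1739, 1437 and 1779 counts in the control and 176, 279, 282 and 256 under mitoxantrone, a log2 change of -2.81, and KRT32 changed by -2.87. KRT5, the basal keratin, had 206349 to 227516 counts in the control and 206447 to 223629 under mitoxantrone, which overlap (log2 change -0.02, SE 0.05), although it was called lower with same-total scaling (-0.12) and quantile normalization (-0.21).

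Dual-specificity phosphatases, which remove phosphate from MAP kinases and other substrates, fell in 15 of 19 cases and rose in 4 (median -0.34). DUSP5, an inhibitor of ERK, fell from 1076 to 1194 counts down to 459.6 to 622, and the least abundant members DUSP13 and DUSP2 changed by -2.48 and -2.46. The families with symbols beginning CD, CYP, GALNT, MYO and CFAP also had low medians (-0.54, -0.34, -0.33, -0.32 and -0.27). Their well-measured members had medians of only -0.07, -0.01, 0.02, -0.09 and 0.02, so their low medians came from genes with a mean under 100. Examples are CD300C, a leukocyte receptor with 39.9 (SD 10.7, n = 4) against 0.497 (SD 0.574, n = 4) counts, and CYP27C1, a retinoid desaturase (log2 change -3.46). Within the cytochrome P450 genes 7 of 27 rose, among them CYP7B1 (1.65), an oxysterol hydroxylase.

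After the histone genes described below, the RPL and RPS stems, mostly ribosomal protein genes, had the highest medians. Stems go by letters alone, so the RPS stem also takes in symbols such as those of the RPS6K kinases. Of the 48 genes with the RPL stem 41 rose and 1 fell (median 0.43), and of the 42 with the RPS stem 34 rose and 3 fell (0.31). Translation initiation factors rose in 36 of 53 and fell in 5 (0.24). In this family the inhibitors of cap-dependent initiation moved apart: EIF4EBP1 rose from a mean of 3879 (SD 171, n = 4) to 9282 (SD 1607, n = 4), and EIF4EBP2 fell from 11761 (SD 451, n = 4) to 7401 (SD 628, n = 4). RNA-binding motif genes rose in 21 of 33 and fell in 5 (0.22; RBM39, a splicing factor, 0.79; RBM47 -0.66).

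Mitochondrial import genes of the TIMM stem, which are encoded in the nucleus, rose in 10 of 15 and fell in 1 (0.25; TIMM13 1.17). That is the opposite direction to the 13 genes of the mitochondrial genome. The RAD genes of DNA repair and recombination rose in 9 of 18 and fell in 6 (0.21). Their share lower, 33.3%, was close to the 37.7% of all coding genes. NUDT nucleotide hydrolases rose in 11 of 20 and fell in 4 (0.20).

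Of the 5 families with at least 80 members, zinc finger genes stood apart from all coding genes. In the ZNF stem 166 of 365 rose and 61 fell (45.5% and 16.7%, beside 37.0% and 37.7% of coding genes), with a median of 0.19, and only 12 rose and 9 fell by 2-fold or more. The median was 0.23 for the 149 on chromosome 19, where many of them lie in clusters, and 0.18 for the 216 elsewhere. Solute carriers had 77 higher and 104 lower of 232 (median -0.10), from the amino acid exchanger SLC7A7 at -3.93 to the urate transporter SLC22A11 at 2.21. The FAM, TMEM and CCDC stems had medians of -0.07, -0.02 and 0.04, and the sign of CCDC turned with same-total scaling (-0.07).

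**Figure D3:**
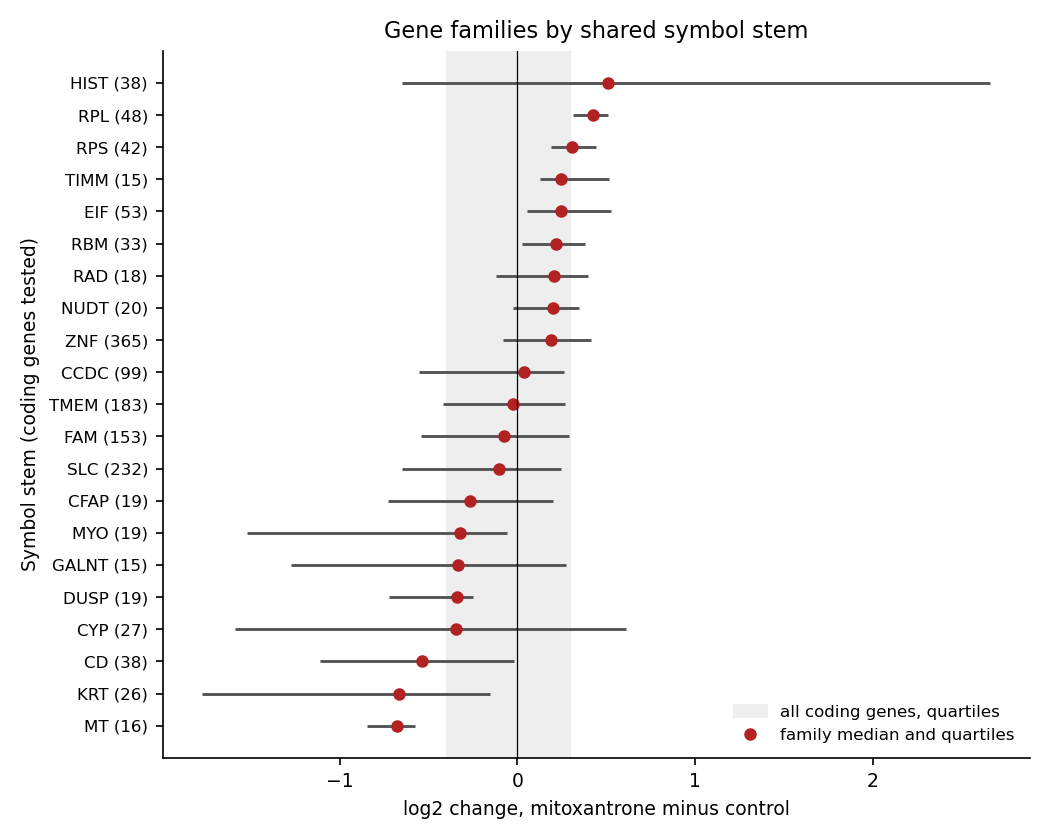
Points are the median log2 change of each family of coding genes and lines its quartiles, with the number of genes tested in parentheses; the gray band spans the quartiles of all coding genes. The MT and KRT medians lie at -0.68 and -0.67, and RPL and HIST at 0.43 and 0.51.

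The histone genes of the HIST stem had the highest median of all 92 families (0.51), which rests on genes with few counts. Of 38 tested, 20 rose and 14 fell. The 20 had a median control level of 4.39 normalized counts and a median of 33.3 under mitoxantrone, so many passed the filter through libraries other than the control, and the counts of rises and the family median are a description only. The 10 well-measured ones had a median of -1.03, with 9 lower and 1, HIST1H4C, higher. HIST1H4C, which encodes histone H4, had 38.4, 46.2, 51.9 and 71.1 counts in the control and 446, 288, 325 and 274 under mitoxantrone. HIST1H1E, a linker histone, had 0.935, 0.661, 0 and 3.95 counts in the control and 80.6, 51.5, 54.4 and 74.4 under mitoxantrone, and it rose with a fitted log2 change of 5.03 (SE 0.55) that depends on the pseudocount. HIST1H3J rose from a mean of 7.65 (SD 3.73, n = 4) to 96.8 (SD 15.6, n = 4).

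The opposite group was led by HIST1H2BJ, with 179.6 to 281 counts in the control and 35.0 to 63.0 under mitoxantrone, HIST1H3E (-2.05) and HIST1H2BK, which fell from 2482 to 3084 counts down to 1181 to 1289. The 2 groups differed in their annotated models, a split looked at after the values were seen. Of 17 genes with annotated exons under 800 bases, 12 rose and 2 fell (median 2.67), and of 21 with longer exons 8 rose and 12 fell (-0.63). Summed over genes, the normalized counts were lower under mitoxantrone in both groups of models. They were 2465 against 3476 in the control for the compact models and 1946 against 3128 for the longer ones. Most of the compact control sum came from HIST1H2BK alone. The fall of that sum is therefore weighted to that gene. The 12 rises among the 17 compact genes are a description only, since many rising histone genes passed the filter through libraries other than the control. The sum without HIST1H2BK was not computed. Replication-dependent histone messages normally end in a stem-loop without a poly(A) tail. Copies of a histone type are nearly identical, so reads can be split between them.

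**Figure D4:**
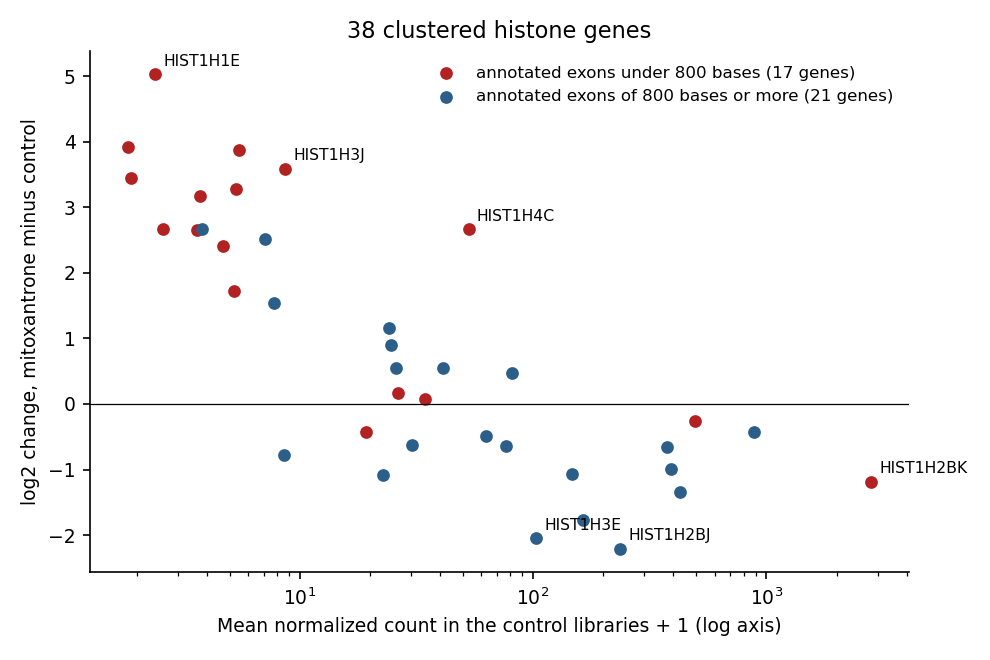
Each point is 1 of 38 clustered histone genes, placed by its mean normalized count in the control (plus 1, log axis) and its log2 change between mitoxantrone and control, colored by the length of its annotated exons. Genes with compact models and few control counts lie mostly above 0, and abundant genes mostly below, with HIST1H4C above.

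The gene lists that follow are read against all genes tested, of which 33.5% were higher and 35.8% lower. Many lists hold mostly well-measured genes, of which 42.3% were higher and 33.9% lower (median 0.05). The direct target of the drug was measured in every library. TOP2A, the topoisomerase of dividing cells, had 25737, 25015, 25748 and 24769 counts in the control and 30074, 26635, 27631 and 27014 under mitoxantrone, a log2 change of 0.14 (SE 0.04, limma adjusted p = 0.0036). That change was no longer called with same-total scaling (0.03) or quantile normalization (0.01). TOP2B, the form found in all cells, rose from 10756, 10289, 10103 and 9617 to 17298, 14428, 14711 and 14370 (log2 change 0.57, SE 0.05). Of 14 genes for topoisomerases and adduct repair, all well-measured, 8 rose and 2 fell. Their median was 0.17, beside -0.01 over all genes and 0.05 over well-measured genes. TDP1 and TDP2, the phosphodiesterases that free trapped topoisomerases from DNA, changed by 0.86 and 0.44. ABCG2, a pump that exports mitoxantrone, fell from 1180, 1198, 1247 and 1166 counts to 244, 306, 320.4 and 317, a 4.05-fold fall. Of the 7 efflux pump genes tested 4 fell and 2 rose (median -0.21; ABCC10 -0.76, ABCC1 0.41).

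Genes that p53 induces after DNA damage did not move as a block. Of 25 tested, 11 rose and 7 fell (median 0.10), and the largest changes went in both directions. TP53I3, an oxidoreductase, fell from 2340, 2451, 2267 and 2644 counts to 352, 391, 440.4 and 378, and the CDK inhibitor CDKN1A fell from 6647, 7148, 6867 and 7153 to 3205, 3535, 3341 and 3359. BBC3, which encodes the pro-apoptotic PUMA, rose by 1.19 and the p53 ligase gene MDM2 by 0.47. Among 23 genes of double-strand break signaling and repair 10 rose and 7 fell. Their median was 0.06 and turned to -0.040 with same-total scaling, and the largest changes were a rise of 0.76 in RAD54L and a fall of 0.21 in TP53BP1.

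Cell cycle genes were listed by phase, and the difference between the lists was not tested. Of 29 genes of G2/M and mitosis 22 rose and 5 fell (median 0.34). CENPE, a kinetochore motor, had 1385, 1370, 1555 and 1339 counts in the control and 3695, 2841, 2908 and 3042 under mitoxantrone, and CKAP2L, a spindle protein, changed by 0.96. The falls were led by the cytokinesis kinesin KIF20A (-0.49) and the centrosome kinase NEK2 (-0.30). Of 32 replication and G1/S genes 12 rose and 13 fell, and the median of 0.03 turned negative with same-total, upper-quartile and quantile scaling. The replicative helicase subunit MCM7 rose from 19499 to 20577 counts up to 34312 to 36848 and the kinase activator DBF4 by 0.59, while cyclin E2 (CCNE2, -1.29) and the ribonucleotide reductase subunit RRM2 (-0.68) fell. Of 13 CDK inhibitor, D cyclin and RB genes 8 rose and 2 fell (median 0.29; CCND3 0.73). CCND2 fell from 698, 577, 626 and 635 counts to 238, 224, 228 and 139.9.

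Genes of cell death showed lower receptors and caspases beside a mixed BCL2 family. Of 15 death receptor and caspase genes 11 fell and 3 rose (median -0.31). CASP1, which processes interleukin 1, fell from 4274, 4041, 3966 and 4245 counts to 846, 877, 910.4 and 943, a log2 change of -2.21 (SE 0.05). The initiator caspase genes CASP10 and CASP9 changed by -2.81 and -0.60, and the caspase inhibitor XIAP rose by 0.30. Of 15 BCL2 family genes 8 rose and 5 fell (median 0.24), with the pro-apoptotic BIK at -1.06 and BAD at 0.59.

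Inflammatory and innate immune genes mostly fell. Of 14 cytokines and chemokines 7 fell and 1 rose (median -0.44, and -0.13 over the 11 well-measured members), from IL32 at -3.10 to CXCL1, which recruits neutrophils, at 0.47. Of 17 NF-kB subunits and feedback genes 9 fell and 3 rose (median -0.22). The subunit RELB and the adhesion molecule ICAM1 changed by -1.26 and -1.31, and the inhibitor NFKBIA and its relative NFKBIZ by 0.55 and 0.88. Of 12 cytosolic or endosomal nucleic acid sensing genes 9 fell and 2 rose (median -0.38), among them the double-stranded RNA receptor TLR3 (-2.16). In the interferon list 18 of 20 fell and 1 rose (median -1.63), from IFI44 at -4.42 to BST2, a tether of virus particles, at 0.33. Over its 15 well-measured members, of which 14 fell, the median was -1.10. The 10 leukocyte and blood markers summed to 5.19 to 24.3 counts in the control libraries and 1.91 to 13.6 in the mitoxantrone libraries, with 3 of the 10 at 0 throughout.

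Squamous differentiation genes mostly fell, while lineage and basal genes went both ways, and the difference between these lists was not tested. Of 20 squamous differentiation genes 14 fell and none rose (median -0.65), with the transcription factor OVOL1 at -3.25 and the cornified envelope transglutaminase TGM1 at -2.39. Of 18 lineage and basal genes 7 rose and 8 fell, and the median of 0.01 turned negative under 3 scalings (same total, upper quartile, quantile) and without mitoxantrone replicate 1 (-0.02). SOX2 rose from 8944, 8866, 9230 and 10181 counts to 20320, 17329, 17581 and 18471, and TP63 by 0.41. LAMA3, a laminin chain that helps anchor basal cells to the basement membrane, changed by -1.57.

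Genes usually read as epithelial or mesenchymal fell on both sides, 12 of 18 lower and 3 higher (median -0.59). E-cadherin (CDH1) fell from 20093, 20057, 19208 and 18056 counts to 11714, 9034, 9538 and 8913, and the tight junction gene CLDN1 changed by -1.63. On the mesenchymal side fibronectin (FN1) changed by -1.80, while N-cadherin (CDH2, 0.52) and the repressor ZEB1 (1.03) rose. The 7 fibroblast markers summed to 16907 to 17610 counts in the control and 5875 to 7656 under mitoxantrone. That sum was carried by COL1A1 (-1.76) and COL3A1, while COL1A2 was at 0 and DCN and LUM averaged under 2. The 5 endothelial markers summed to 948 to 1059 and 175 to 247, almost all from VWF (-2.21), with KDR and CLDN5 at 0. The part of other cells in these results was not tested beyond these values.

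Of 21 EGFR family, ligand and MAPK output genes 8 fell (38.1%) and 4 rose, so the share lower was close to that of all genes. Their median was -0.02 and was 0.01 without mitoxantrone replicate 3, with the EGFR ligand HBEGF at -1.67 and the ETS factor ETV4 at 0.74. Of 13 YAP target and pathway genes 7 fell and 3 rose (median -0.16; CCN2 -1.02). In the TGF-beta and SMAD list 10 of 20 rose and 7 fell (median 0.14). There the ligand genes INHBA (-1.93) and TGFB2 (-1.17) and the matrix target TGFBI (-1.67) fell, while inhibitors of DNA binding, induced by BMP signals, rose. ID3 had 5752, 6903, 6789 and 6984 counts in the control and 20798, 19445, 21091 and 20264 under mitoxantrone, and ID1 and ID4 changed by 1.45 and 1.63. Wnt genes fell in 12 of 25 and rose in 4 (median -0.08, with TCF7 at -1.89 and LGR4 at 0.47). Among the 19 well-measured Wnt genes 7 fell and 4 rose (median -0.04). Notch genes rose in 8 of 17 and fell in 4 (median 0.15, with MAML3 at 1.78, HEY1 at 1.20 and HES2 at -1.64).

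Metabolic and stress lists went in different directions. Lysosome and autophagy genes fell in 18 of 27 and rose in 3 (median -0.24). NEU1, the lysosomal sialidase, fell from 6676, 6556, 6280 and 6629 counts to 2228, 2422, 2395 and 2356, and ATG5, needed to form autophagosomes, rose by 0.44. Glycolysis genes rose in 12 of 22 and fell in 7 (median 0.12), with lactate dehydrogenase LDHA at 0.55 and the glucose transporter SLC2A3 at -1.05. Cholesterol synthesis genes rose in 13 of 22 and fell in 1 (median 0.39; INSIG1 1.26, HMGCS1 1.08). The ATF4 list had 19 of 24 higher and 3 lower (median 0.62). Of these DDIT4, an inhibitor of mTORC1, rose from 2522 to 2767 counts up to 8346 to 13489 and ATF3 fell by 0.88.

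The NRF2 list had 32 of 37 higher and 2 lower (median 0.73). Endoplasmic reticulum stress genes rose in 8 of 18 and fell in 3 (median 0.09, and -0.01 with same-total scaling), and heat shock genes rose in 9 of 18 and fell in 4 (median 0.07, and -0.03 with same-total scaling).

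Chromatin and transcription genes moved little. Histone and DNA methylation enzymes rose in 13 of 29 and fell in 7 (median 0.11), and only EZH1, a Polycomb methyltransferase, passed 2-fold (1.06), followed by NSD2 (0.92). Remodelers rose in 11 of 22 and fell in 4 (median 0.14; INO80 0.87, ARID2 0.78). RNA polymerase II elongation genes rose in 8 of 22 and fell in 8 (median -0.07), with the P-TEFb inhibitor HEXIM1 at 0.67 and the elongation factor SUPT5H at -0.61.

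**Figure D5:**
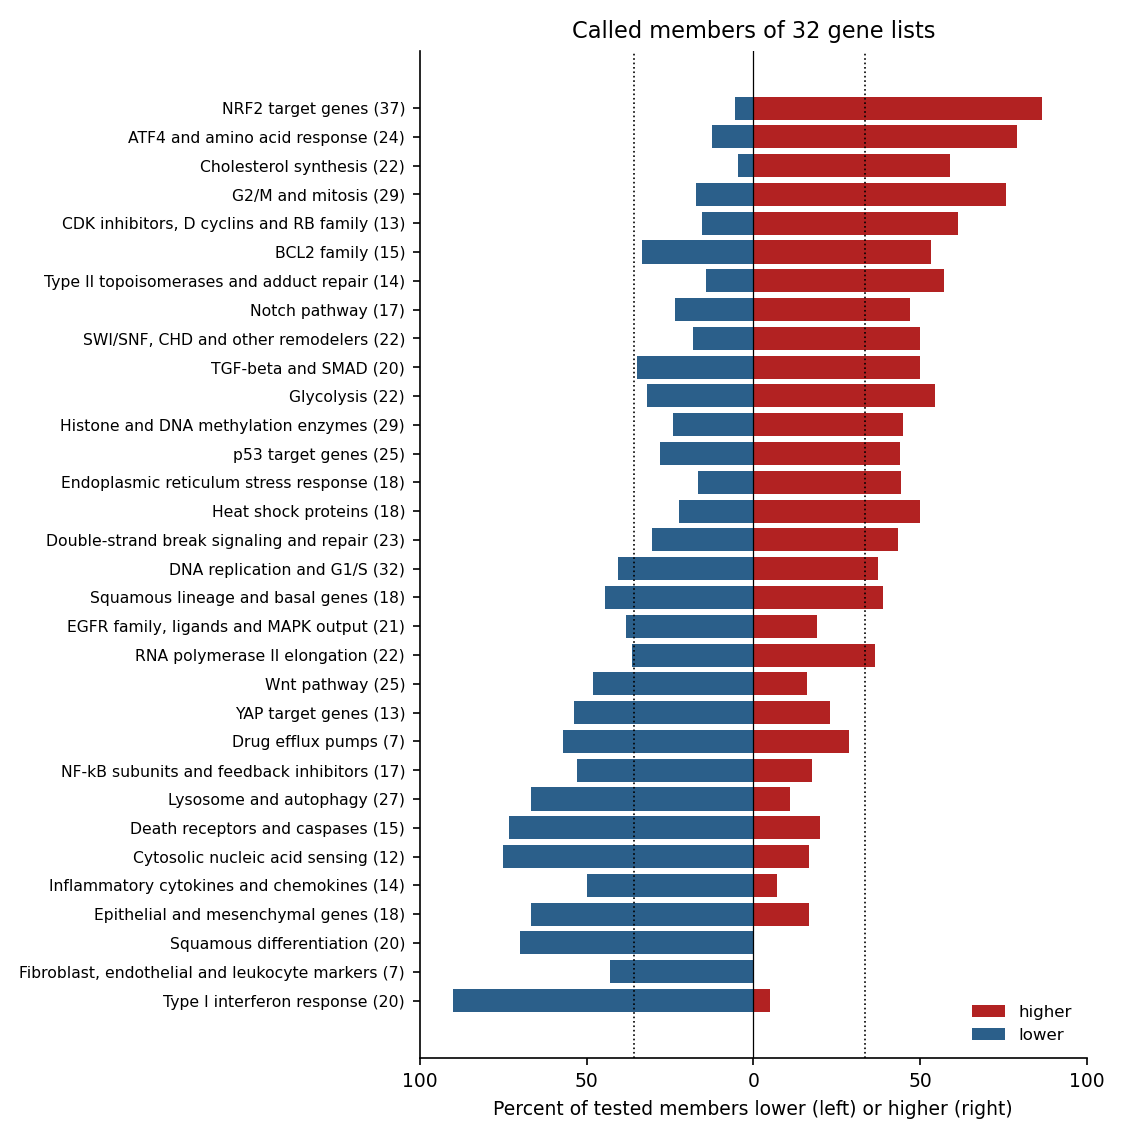
Bars give the percent of each list's tested members (number in parentheses) that were called lower (left, blue) or higher (right, red), ordered by median log2 change; dotted lines mark 35.8% lower and 33.5% higher, the shares over all 16950 genes. The NRF2 list has the longest bar to the right and the interferon list the longest to the left.

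Neighboring genes were looked at after the values were seen, with no test of clustering. In 13184 overlapping windows of 5 adjacent coding genes tested, all 5 were lower in 189 and all 5 higher in 132, while the window median was at or below -1 in 338 and at or above 1 in 12. Windows were not limited to well-measured genes, and several of the lowest held at most 2 of them. The lowest window was the APOL cluster on chromosome 22 (35648395 to 36267530, GRCh38), with APOL6, APOL3 and APOL1 at -3.83 to -5.01 and APOL2 at -1.20, while the fifth gene, RBFOX2, was not called lower. All 5 genes were lower in the kallikrein window on chromosome 19 (50819148 to 50969673; KLK5 -4.25, KLK6 -1.37). The same held for the window of LIPA, IFIT2, IFIT3, IFIT1 and IFIT5 on chromosome 10 (89213569 to 89421001; IFIT2 -3.23, IFIT5 -1.99). The APOL, KLK and IFIT genes are families of duplicated genes and are not independent, and 1 cluster enters several windows.

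Of the 12 windows with a median of at least 1, 7 held HIST1 genes and 3 held AKR1C genes (AKR1C1 1.92, AKR1C2 1.82, AKR1C3 1.26). Each of these HIST1 windows held at most 2 well-measured genes, while all 5 genes of the AKR1C windows were well-measured. The 4 higher genes of another of the 12 windows lay on chromosome 12 (57452323 to 57521737) and are not paralogs. They were INHBE (3.58), GLI1 (2.03), MARS, the cytosolic methionyl-tRNA synthetase (0.93), and DDIT3, the stress factor CHOP (1.31). INHBE and GLI1 were thus both among the 14 highest rises of the whole set while lying next to each other.

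Gene length bore little relation to the change. Among coding genes, the median log2 change was 0.05 in the tenth with the shortest span and 0.04 in the tenth with the longest, a difference of -0.01. Base composition of the transcript did more: the medians were 0.13 in the tenth with the lowest GC content and -0.08 in the tenth with the highest. Chromosome medians of well-measured coding genes ran from -0.04 (chromosome 20) to 0.16 (chromosome 19) for the nuclear genome, against -0.66 for the mitochondrial genome.

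The 2 drugs could also be set against each other in these genes. All 14 of the highest rises and all 14 of the largest falls passed the test of mitoxantrone against pyrimethamine in the same direction. Since the genes were chosen for their mitoxantrone values, which that comparison uses again, this is a description only (76.4% of all genes were called there, in either direction). Against the same control, 53.3% of genes were called for pyrimethamine, and of the 14 rises 13 were lower under pyrimethamine and 1 was not called. Of the 14 falls 6 were higher under pyrimethamine, 2 were lower and 6 were not called. INHBE, for example, had 9.85 to 21.4 normalized counts under pyrimethamine, below every control library, and SAA1 had 1017 to 1209, above every control library.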

How the data were processed

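Total RNA was sequenced from 12 libraries, for which STAR 2.6.90c, featureCounts 1.5.1, cutadapt 1.12, FastQC 0.11.5 and the builds hg38 and mm10 are listed, per the submitters' processing notes. Each deposited value is a normalized signal, a gene's count divided by the authors by a factor for its library: 100.0% of values became whole reads (within 0.01 read) when multiplied back. Depth is 47.5 to 94.5 M reads per library compared, and the tool behind the factors and the strand setting are not given in the sources used here.

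Genes were tested with limma 3.58.1 (R 4.3.3) on log2(value + 1) over all 12 libraries, two-sided, with Benjamini-Hochberg adjustment and calls at 0.05. The contrast was mitoxantrone minus control. The median standard error was 0.0719. Folds are back-transformed from this scale and understate changes of genes with few counts. On the recovered whole reads, edgeR 4.0.16 called 5805 genes higher and 5960 lower, and DESeq2 1.42.0 called 5791 and 6043. On simulated data (16950 genes), 38 of 50 genes changed 1.5-fold and 49 of 50 changed 2-fold were recovered, with 10 of 16750 unchanged genes called. The simulation thus left nearly all genes unchanged, while 69.3% were called in the data, so its rates need not carry over to these calls.

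Named genes are well-measured coding genes with a symbol and no overlap between the groups: the 14 highest rises, the 14 largest falls, and the 6 largest gains and 6 largest losses in counts. The rule adds 4 noncoding genes each way, the 2 largest called rises and falls of each list and family, and TOP2A, TOP2B and ABCG2. Not all genes it adds are described, and some are not reported here. Other names were picked with values in view. The members and the 32 lists were chosen with earlier results of these data known. Two-sided exact permutation tests compared measures of whole libraries. Coordinates and gene types are from GENCODE release 29 (GRCh38), which holds 58611 of the 58884 identifiers; the authors' annotation may differ. Alternatives covered pseudocounts, filters, scaling, the variance model, the libraries fitted and the count tests.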

Additional observations from a re-analysis of the deposited data

Results flagged for a closer look

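In 28 of 344 groups of 4 libraries checked, 1 library lay far from the other 3, where chance gives about 1 in 20. Mitoxantrone replicate 1 was that library in 13 of them. Its mitochondrial share of reads was 3.23%, against 3.84 to 3.89% in the other 3, and its 100 most abundant genes took 19.5% of reads, against 20.7 to 20.8%. All values below are normalized counts.

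In mitoxantrone replicate 1 the count was 541454 for EEF1A1 (690672 to 697723), 281620 for MT-CO3 (310841 to 314856) and 70543 for MT-ND1 (86465 to 88280), with the range of the other 3 libraries of the group in parentheses. It was also 196851 for MT-ND4 (258894 to 267282), 103990 for MT-ATP6 (128531 to 132615) and 211 for LINC02561 (285 to 296). Others there were 17298 for TOP2B (14370 to 14711), 17591 for RRM2 (15509 to 15692) and 17158 for CCND3 (14857 to 15075). It was 118 for TGFBI (191 to 203) and 8334 for EIF4EBP2 (6977 to 7175). In mitoxantrone replicate 2 the count was 3.82 for APOL1 (6.18 to 6.28), 186 for MAML3 (240.3 to 248) and 12145 for RBM39 (11505 to 11594). In mitoxantrone replicate 3 the count was 30.9 for AC022028.2 (65.8 to 70.8). In mitoxantrone replicate 4 the count was 139.9 for CCND2 (224 to 238). In control replicate 1 the count was 7419 for TP53BP1 (7149 to 7194) and 5752 for ID3 (6789 to 6984). In control replicate 2 the count was 295 for KLK5 (348 to 355), 74.7 for LINC02561 (others at most 57.1) and 122 for IL32 (146 to 150.2). It was also 235 for KLK6 (157 to 167) and 186 for DDIT3 (200.2 to 202). In control replicate 3 the count was 1446 for NFKBIA (1710 to 1747). In control replicate 4 the count was 94.9 for IFI44 (77.3 to 79.5) and 6994 for MT2A (6104 to 6155).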

How the results depend on the processing

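Counts of genes higher and lower stayed within 1.5 times of the reported ones under all 21 alternatives. Counts at 2-fold moved further in 5 cases: 434 genes higher with a pseudocount of 10, 292 higher and 775 lower with a mean of at least 100 over the 12 libraries, and 1260 higher and 1504 lower with quantile normalization. The filter tests fewer genes by construction, and the cause of the others was not tested. Leaving out 1 library at a time gave 5420 to 5658 genes higher and 5773 to 6059 lower, 637 to 657 and 2291 to 2337 at 2-fold, and 287 to 314 and 646 to 663 at 2-fold among well-measured genes. The difference between the longest and shortest genes ran from -0.04 to 0.01. Of 3427 pairs of a named gene and an alternative, 3422 kept direction and call. The exceptions were TOP2A with same-total scaling (adjusted p = 0.461) and quantile normalization (adjusted p = 0.852), and KRT5, which was called lower with both (-0.12 and -0.21) and ran from -0.050 to 0.0044 when 1 library was left out (0.0044 without mitoxantrone replicate 4), by limma. Of the medians of 53 lists and families under the alternatives, 944 stayed within 1 SD of the spread between mitoxantrone libraries, 167 moved further, and 2 changed sign by more than that SD: double-strand break genes at -0.040 with same-total scaling and HIST at -0.83 with the mean filter, where 0.06 and 0.51 were reported. Counting medians close to 0, the sign changed in 18 cases over 10 lists and families: the 2 above and those for replication, endoplasmic reticulum stress, heat shock, squamous lineage, EGFR, CFAP, TMEM and CCDC. Any pairing of libraries by replicate number was very weak: deviations of same-numbered libraries correlated at 0.013, 0.029, 0.015 and 0.0091 across genes. For control replicates 1, 2 and 3 the same-numbered mitoxantrone library correlated most, while control replicate 4 correlated most with mitoxantrone replicate 1 (0.019). With the replicate number as a block, 5685 genes were higher and 6064 lower, 659 and 2346 at 2-fold, and 308 and 655 among well-measured genes. Depth limits genes with few counts most: the median standard error was 0.0719 over all genes and 0.0541 over well-measured ones.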
